A study of Mus musculus with 15 samples.

Results

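The genes described here encode liver enzymes and transporters that process drugs, steroids, retinoids and fatty acids. They were taken by the start of their symbols, which are the cytochrome P450 genes (Cyp, without Cyp3a), the UDP-glucuronosyltransferases (Ugt), the sulfotransferases (Sult), the carboxylesterases (Ces), the aldehyde dehydrogenases (Aldh), the aldo-keto reductases (Akr) and the ABC transporters of classes a to g (without Abcd2). The rule found 49 of the 2545 genes in the deposited table, or 1.93%, made up of 25 Cyp, 6 Ugt, 8 Sult, 3 Ces, 3 Aldh, 2 Akr and 2 Abc genes. The GENCODE annotation of GRCm38 lists 240 protein-coding genes under the same rule, and the others are not analysed here. Each of the 2545 genes had a group mean that differed more than 2-fold from Veh in at least 1 treatment, so having such a difference is no finding about a gene in the table.

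RNA-seq of liver was available for 15 mice in 5 groups of 3. All were females of the strain C57BL/6, which the study's methods give as C57BL/6J, that had their ovaries removed at 10 weeks of age and that ate a diet with 45% of calories from fat from 8 weeks of age, so the controls shared the surgery and the diet. For 6 weeks the mice received vehicle (Veh, a mixture of DMSO, ethanol and saline), 17β-estradiol (E2, 5 µg/kg/day), conjugated estrogens (CE, 2.5 mg/kg/day), bazedoxifene (BZA, 3 mg/kg/day), a selective estrogen receptor modulator, or CE and BZA together (CE+BZA). The doses of the compounds differ and each was given at a single dose, so differences between groups are between these regimens and not between compounds at matched doses. The study's methods describe E2 from slow-release pellets and CE from osmotic minipumps. Differences between E2 and the other groups therefore cannot be told apart from differences in delivery. The doses above are those stated in the methods. The pellet content and release period given there do not match the stated E2 dose, so the E2 dose received is uncertain. Mice are named by group and by the number in the sample descriptions.

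Drug and steroid metabolism in the liver is usually described in phases. Cytochrome P450 enzymes, together with aldehyde dehydrogenases, aldo-keto reductases and carboxylesterases, oxidize, reduce or hydrolyze a substrate, sulfotransferases and UDP-glucuronosyltransferases attach a polar group to it, and ABC transporters move the product across the membrane. Many of these genes lie in clusters of close copies and are controlled by the receptors CAR, PXR, PPARα and AHR. In mouse liver many also differ between the sexes, under the control of growth hormone and its target STAT5b.

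Each value is on a log2 scale that the authors set against a gene's own median, so 0 is that median, a difference of 1 is a 2-fold difference, and levels cannot be compared between genes. Values below about 1 normalized count had been raised to a floor, and 9 of the 49 genes had at least 2 mice at it. Some libraries stood apart from the rest. BZA 3, BZA 1 and CE 3 had 45, 32 and 29 genes more than 2 log2 units above every other mouse, and the other 12 mice had 0 to 5. Relative levels of markers were summed on the linear scale within each mouse, and each sum is given as its log2. A list of several genes at their medians therefore lies above 0. In BZA 3 the sum was 7.48 for 8 adipocyte markers and 9.26 for 6 exocrine pancreas markers, against 2.73 to 5.21 and 2.45 to 4.91 in the other mice. The adipocyte sum was also higher in the Veh mice (4.19 to 5.21) than in the treated mice other than BZA 3 (2.73 to 3.59). The defining markers Adipoq, Lep and Plin1 were at 0, their floor, in all 3 Veh mice. The highest of the 8 markers in each Veh mouse was Cfd, which the paper lists among the liver genes checked by qPCR. Cfd was at 4.89, 4.55 and 3.15 in Veh 1, Veh 4 and Veh 7. In the treated mice other than BZA 3 it was at most 0.53. Car3 was at 1.18, 0.76 and 1.03 in these Veh mice and at most 0.31 in those treated mice. The 4 neutrophil markers summed to 8.40 in CE 3, against 1.08 to 3.55 elsewhere. The other lists were short, with 2 of 5 cholangiocyte markers summing to between -0.75 and 1.70 except in BZA 1 (3.44), 2 of 6 stellate cell and fibroblast markers to between 0.50 and 3.09, 4 of 7 lymphocyte markers to between 1.41 and 2.90 and 5 of 7 erythroid markers to between 1.18 and 4.54. Marco, the 1 macrophage marker in the table, ranged from -1.91 to 2.82 and Fabp2, the 1 intestinal marker, from -1.33 to 1.52, and no endothelial or kidney marker was in the table. Of 8 hepatocyte markers the table holds Ass1 and Pck1, both lowest in Veh 7 (-2.37 and -1.73). How much of any difference below goes with these libraries was not tested, and counts without BZA 3, BZA 1 and CE 3 are given.

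By limma, 0 of the 49 members differed from Veh in E2, CE, BZA or CE+BZA at an FDR under 0.05 with a fold change above 2, while 0.196%, 0.157%, 0% and 0.118% of all 2545 genes did. A single member, Cyp4a12a, differed over the 5 groups in the F-test (FDR 0.0441, against 0.472% of all genes). At an unadjusted p under 0.05, 18 members passed the F-test (36.7%, against 16.5% of all genes). The members are therefore described below by a looser rule, a fold change above 2 with an unadjusted p under 0.05, which is not corrected for the number of genes. They are called higher or lower, with no claim that a gene so described changed.

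At the looser rule, 18 members differed between E2 and Veh (15.1% of all genes did), 8 of them higher (6.52% of all genes) and 10 lower (8.61%). In CE there were 16 (18.6% of all genes), 2 higher (10.1%) and 14 lower (8.45%). In BZA there were 6 (16.4%), 1 higher (8.92%) and 5 lower (7.47%). In CE+BZA there were 16 (21.1%), 2 higher (11.6%) and 14 lower (9.55%). These were 36.7%, 32.7%, 12.2% and 32.7% of the 49 members, so the share in BZA was below that of the whole table and the others above it. Calls of close copies are not independent, since genes of clusters such as Cyp4a and Sult2a share reads or move together. The counts here and below are thus counts of genes and not of separate events. The BZA count rested on single mice, since it was 16 without BZA 1, 3 without Veh 7 and 3 without BZA 4, and it was 12 without BZA 3, BZA 1 and CE 3 together. The other counts were 19 in E2, 12 in CE and 17 in CE+BZA without these libraries. Of the 49 members, 31 met the rule in at least 1 treatment, or 63.3%, and so did 49.7% of all genes. The 3 mice of a treatment lay fully above or below the 3 Veh mice for 28 members in E2 (22.7% of all genes), for 24 in CE (25.2%), for 14 in BZA (22.3%) and for 20 with CE+BZA (28.4%).

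The median of the members lay below that of all genes in each treatment, although the looser calls in E2 went both ways (8 higher, 10 lower). The median log2 fold change of the 49 members in E2, CE, BZA and CE+BZA was -0.35, -0.62, -0.45 and -0.55, while that of all genes was 0, 0.06, 0.11 and 0.08. With each mouse left out, the E2 median ran from -0.61 to -0.08. With the replicate number as a block, the E2 calls were 7 higher and 2 lower. In all 4 treatments 23 members had a lower mean than Veh (28.9% of all genes did) and 9 a higher one (30.5%). All 12 treated mice lay below all 3 Veh mice for 7 members (2.32% of all genes), which were Cyp2c55, Cyp2b13, Cyp4a10, Cyp4a31, Cyp4a32, Ces1e and Aldh1a1, and above them for Sult5a1 alone (1.26%). These 4 comparisons share the 3 Veh mice, so 1 set of Veh values enters each of them.

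**Figure D1:**
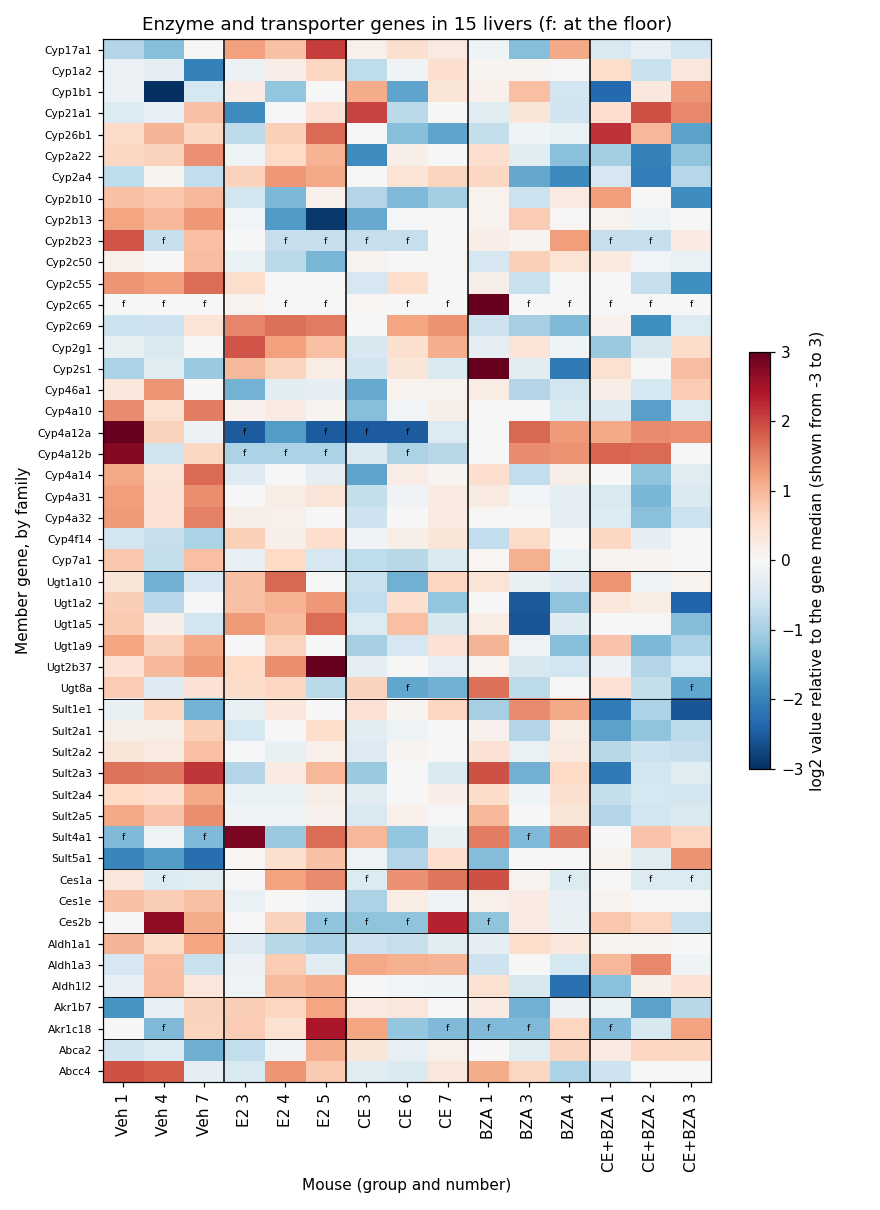
Log2 values of the 49 genes (rows, by family) in the 15 mice (columns, by group), relative to the median of each gene, with the color scale ending at -3 and 3 and with f marking values at the floor. The Veh columns are mostly red for the Cyp4a, Sult2a and Cyp2b genes and blue for Sult5a1, and the dark blue values of Cyp4a12a are in E2 and CE mice.

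Fatty acids are hydroxylated at the end of the chain by the Cyp4a enzymes, and 6 of their genes, lying within 322.6 kb of chromosome 4 (chr4:115299046-115621602, GRCm38), were in the table. Cyp4a12a, which is known as a male-predominant gene of mouse liver and makes an arachidonic acid metabolite that acts on blood vessels, was at 3.17, 0.69 and -0.19 in the Veh mice. In E2 it was at -2.50, -1.68 and -2.50 and in CE at -2.50, -2.50 and -0.40, where each -2.50 is the floor. In BZA it was at 0, 1.73 and 1.27 and in CE+BZA at 1.13, 1.43 and 1.36. The E2 mice lay below all Veh, BZA and CE+BZA mice, and so did the CE mice, while the BZA and CE+BZA mice fell between the lowest and the highest Veh mouse.

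Cyp4a12a differed from Veh by -3.45 ± 0.77 (SE) in E2 (FDR 0.0863) and by -3.02 in CE (FDR 0.145), with 2 mice of each of these treatments at the floor. The sizes of its differences between E2 or CE and any other group therefore depend on where that floor lies. The differences in BZA (-0.22, FDR 0.87) and CE+BZA (0.08, FDR 0.988) were small beside their standard error. CE+BZA was 3.53 above E2 (95% CI 1.90 to 5.16, FDR 0.0647) and 3.11 above CE (95% CI 1.48 to 4.74, FDR 0.145), and E2 was lower than BZA by 3.23 log2 units, a difference of -3.23 (FDR 0.097). E2 and CE differed by -0.43 with a 95% CI from -2.06 to 1.20, and CE+BZA and BZA by 0.30 (95% CI -1.33 to 1.94), intervals that leave room for more than a 2-fold difference either way. Veh 1 set much of the size, since without it the E2 difference was -2.48 and the CE difference -2.05. The F-test lost its call without any 1 of 11 mice, with an FDR from 0.0254 to 0.125 over the 15 mice left out in turn, and its FDR was 0.113 without BZA 3, BZA 1 and CE 3.

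The neighboring copy Cyp4a12b, also male-predominant, followed Cyp4a12a over the 15 mice (Pearson r = 0.847) and shared 36.2% of its 100-base transcript windows with it, so reads could have been counted for either. It was at 2.75, -0.59 and 0.63 in Veh, at its floor of -0.95 in all 3 E2 mice, and at -0.44, -0.95 and -0.84 in CE. In BZA it was at 0.02, 1.42 and 1.34 and in CE+BZA at 1.74, 1.70 and 0. The E2 difference from Veh was -1.88 (FDR 0.272), and it was -0.97 without Veh 1, where it lost the looser call. In CE it was -1.67 (FDR 0.251), lost without Veh 1 (-0.76), CE 6 or CE 7.

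The other 4 genes of the cluster, Cyp4a10, Cyp4a14, Cyp4a31 and Cyp4a32, are known as targets of PPARα. They had a different pattern, lower in all 4 treatments. Cyp4a10 was at 1.43, 0.45 and 1.53 in Veh, at 0.13, 0.24 and 0.07 in E2, at -1.29, -0.08 and 0.16 in CE, at -0.01, 0 and -0.45 in BZA and at -0.44, -1.62 and -0.40 in CE+BZA. Every treated mouse was below every Veh mouse, with the lowest values in CE+BZA 2 and CE 3. The difference from Veh was -0.99 in E2 (FDR 0.35), -1.54 in CE (FDR 0.207), -1.29 in BZA (FDR 0.283) and -1.96 ± 0.52 (SE) in CE+BZA (FDR 0.109). In CE+BZA, the difference was -1.77 for Cyp4a31, -1.85 for Cyp4a32 and -1.62 for Cyp4a14, and all 4 genes met the looser rule there and in CE. In E2 only Cyp4a14 met it (-1.31), and in BZA Cyp4a10, Cyp4a31 (-1.05) and Cyp4a32 (-1.16). The Cyp4a14 call was lost in E2 without Veh 1, Veh 7, E2 3 or E2 5, and in CE+BZA without Veh 7 or CE+BZA 2. In CE the calls of Cyp4a14, Cyp4a31 and Cyp4a32 were lost without Veh 7 and without CE 3, the library with the neutrophil markers, where in the latter case their differences were -0.94, -0.96 and -0.96. Those of Cyp4a31 and Cyp4a32 in CE were also lost without Veh 1. In BZA all 3 calls were lost without Veh 1, Veh 7 or BZA 4. Cyp4f14, a leukotriene-hydroxylating relative on chromosome 17, went the other way, at -0.54, -0.70 and -0.95 in Veh and 0.72, 0.18 and 0.51 in E2, a difference of 1.20 (FDR 0.278). That call was lost without E2 3, where the difference was 1.07.

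**Figure D2:**
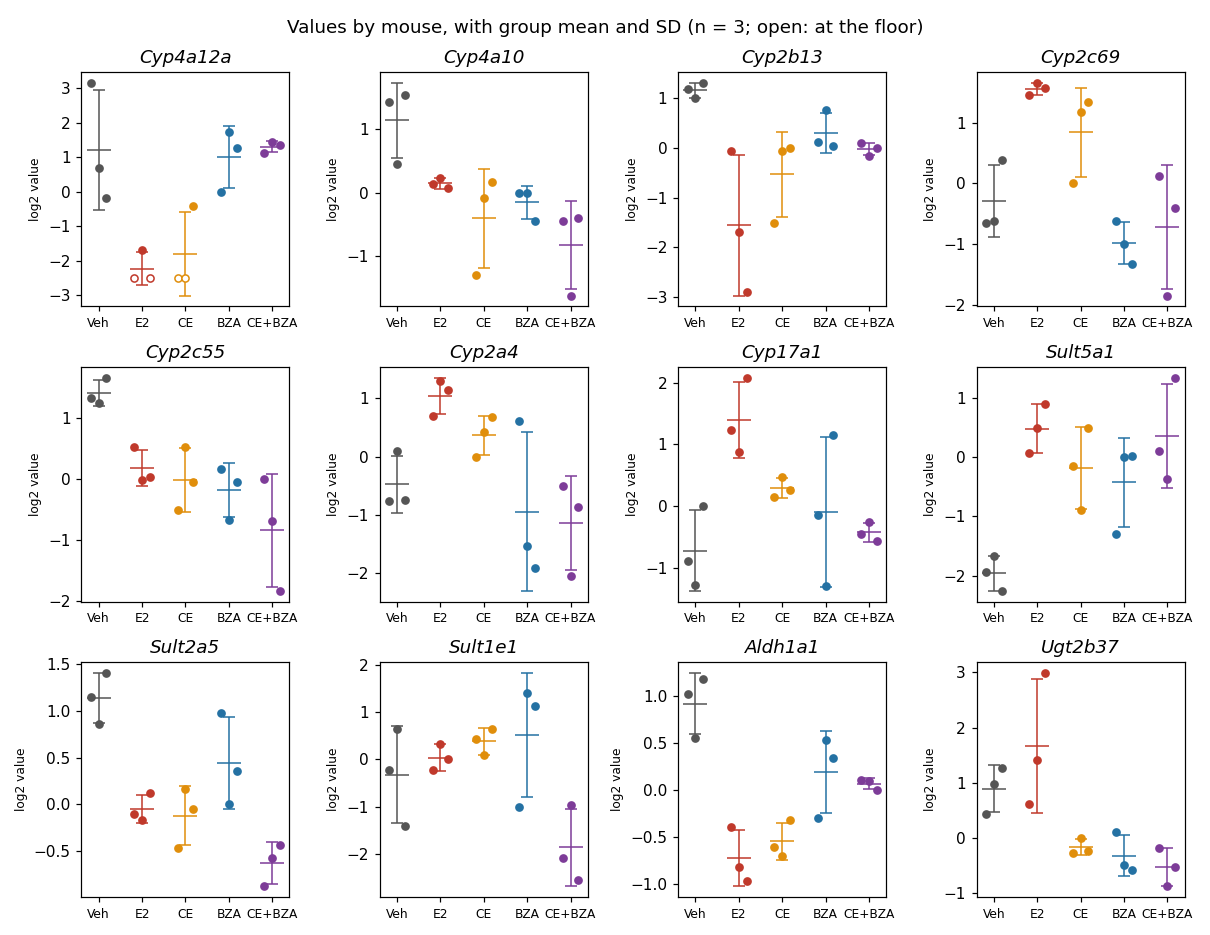
Log2 value of 12 members in each mouse (points, open at the floor) by group, with the group mean (bar) and SD (n = 3). Cyp4a12a and Aldh1a1 are lowest in E2 and CE, Cyp2c69 and Cyp2a4 are highest in E2, Sult1e1 is lowest in CE+BZA, and Cyp4a10, Cyp2c55 and Sult2a5 have lower group means than Veh in every treatment.

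The Cyp2c enzymes epoxidize fatty acids and oxidize drugs and steroids, and 4 of their genes were in the table, all on chromosome 19. Cyp2c69 is known as female-predominant in mouse liver. It was at -0.65, -0.62 and 0.39 in Veh, at 1.46, 1.66 and 1.57 in E2, at 0, 1.18 and 1.34 in CE, at -0.62, -0.998 and -1.32 in BZA and at 0.12, -1.85 and -0.41 in CE+BZA. All 3 E2 mice were above all mice of the other groups. E2 exceeded Veh by 1.86 ± 0.56 (SE, FDR 0.195), BZA by 2.54 (95% CI 1.35 to 3.73, FDR 0.0621) and CE exceeded BZA by 1.82 (FDR 0.318), while CE+BZA was below E2 by a difference of -2.28 (FDR 0.117). These calls held with each mouse left out, which the call of CE+BZA against CE (-1.55, FDR 0.235) did not, since it was lost without CE 7 or CE+BZA 2 (-0.98 without the latter). Of its transcript windows, 36.3% are also found in other genes, chiefly Cyp2c40 (29.5%).

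Cyp2c55, a target of CAR and PXR, was highest in Veh, at 1.33, 1.26 and 1.67, and below 0.54 in every treated mouse. It was at 0.53, -0.01 and 0.03 in E2, at -0.51, 0.52 and -0.05 in CE, at 0.17, -0.67 and -0.04 in BZA and at 0, -0.69 and -1.84 in CE+BZA. The differences from Veh were -1.24 in E2 (FDR 0.309), -1.43 in CE (FDR 0.22), -1.60 in BZA (FDR 0.231) and -2.26 ± 0.52 (SE) in CE+BZA (FDR 0.0744), and it was the 1 member below Veh at the looser rule in every treatment. The call in E2 was lost without Veh 1, Veh 7, E2 4 or E2 5, with a difference no smaller than -1.11. Cyp2c50 was lower in E2 alone at this rule (-1.15, FDR 0.312), and lost that call without Veh 7, E2 4 or E2 5 (-0.86 without E2 5). Cyp2c65, which is known from the intestine, was at or within 0.10 of its floor in 14 mice and at 3.93 in BZA 1. In the same mouse Cyp2s1, a P450 of epithelia, was at 3.33 against -2.11 to 0.98 in the other mice. The epithelial genes Muc3, Spink4 and Slc26a3, named after their values were seen, were at 5.76, 4.41 and 4.81 in BZA 1 and at most 0.19 in every other mouse. Dmbt1, another such gene, was at 11.73 in BZA 1, 6.00 in E2 3, 3.85 in BZA 3 and 0 elsewhere, while the intestinal marker Fabp2 was at -0.51 in BZA 1. Their part in these values was not tested.

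The promoters of Cyp2c69 and Cyp2c65 are shown because they were the only 2 of the 34 members with an entry in the RefSeq promoter table (GRCm38.p6) that hold the letters CAAAGTCCA, a sequence bound by the liver factor HNF4A. The 250 bases before the start site run from chr19:39886770-39887019 on the minus strand for Cyp2c69 and from chr19:39060756-39061005 on the plus strand for Cyp2c65, with the motif in capitals, starting at position -75 and -116 from the start site.
Cyp2c69 promoter: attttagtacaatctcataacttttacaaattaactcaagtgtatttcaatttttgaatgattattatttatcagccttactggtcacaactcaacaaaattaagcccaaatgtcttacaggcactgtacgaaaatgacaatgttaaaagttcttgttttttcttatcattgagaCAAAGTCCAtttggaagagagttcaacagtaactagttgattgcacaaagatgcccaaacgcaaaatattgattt
Cyp2c65 promoter: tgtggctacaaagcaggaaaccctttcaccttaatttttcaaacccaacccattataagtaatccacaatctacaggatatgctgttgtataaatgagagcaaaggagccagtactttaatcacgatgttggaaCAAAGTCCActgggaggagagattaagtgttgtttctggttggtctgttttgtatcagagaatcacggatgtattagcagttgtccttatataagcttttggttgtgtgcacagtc
Over the 39 windows, from 250 bases before to 50 after the start, that these 34 members have, on either strand, this motif was in 5.1%, against 0.47% of all 32851 windows in the table. The letters are thus shared by a gene that was highest in E2 and a gene seen in a single BZA library. The estrogen response element (GGTCA and TGACC, 3 bases apart), the direct repeat of AGGTCA with 1 base between, and the HNF1 motif were in 0 member windows (0.07%, 0.04% and 0.01% of all windows). The hexamer AGGTCA, which is also part of that repeat, was in 20.5% of member windows and 16.26% of all, the STAT5 motif TTCNNNGAA in 2.6% (Abcc4) and 8.3%, and the AHR core GCGTG in 17.9% and 32.39%. These matches describe the letters in these windows only.

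The Cyp2b genes are the classical targets of CAR. Cyp2b13, female-predominant, was at 1.17, 0.99 and 1.30 in Veh, at -0.07, -1.70 and -2.89 in E2, at -1.52, -0.07 and -0.01 in CE, at 0.11, 0.76 and 0.03 in BZA and at 0.09, -0.16 and 0 in CE+BZA. All treated mice lay below the Veh mice, and E2 4 and E2 5 lay lowest. The difference from Veh was -2.71 ± 0.62 (SE) in E2 (FDR 0.0863) and -1.69 in CE (FDR 0.223), the latter lost without CE 3 (-1.20). E2 was also below BZA (-1.86, FDR 0.257), a call lost without E2 5 (-1.19). Cyp2b10 was at 0.87, 0.81 and 0.98 in Veh and at -0.89, -1.32 and -1.01 in CE, with no overlap, a difference of -1.96 (FDR 0.202), and in E2 it was lower by -1.46 (FDR 0.317), a call lost without any Veh mouse, E2 3 or E2 4. In CE+BZA it was spread from -1.86 to 1.25. Cyp2b23 had 7 mice at the floor and met no rule (-1.16, -1.15, -0.19 and -1.08 in E2, CE, BZA and CE+BZA). Of the 13 genes listed as targets of CAR and PXR, 5 were members (Cyp2b10, Cyp2b13, Cyp2c50, Cyp2c55 and Aldh1a1). All 5 had a lower mean than Veh in each treatment, as did 28.9% of all genes. In E2, CE, BZA and CE+BZA, 5, 4, 1 and 1 were lower at the looser rule (8.61%, 8.45%, 7.47% and 9.55% of all genes). Their medians were -1.46, -1.47, -0.86 and -1.09. Of the 5 listed AHR targets, Cyp1a2, which oxidizes estradiol and caffeine, and Cyp1b1 were members, and neither met the rule in any treatment (medians 1.01, 0.98, 1.16 and 0.97).

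The 2 Cyp2a genes, whose products hydroxylate steroids and are known as female-predominant, parted in E2. Cyp2a4, a testosterone hydroxylase, was at -0.77, 0.09 and -0.75 in Veh and at 0.69, 1.29 and 1.14 in E2, with the groups apart and a difference of 1.52 (FDR 0.301). In BZA it was at 0.62, -1.54 and -1.90 and in CE+BZA at -0.51, -2.05 and -0.86, and E2 was above BZA by 1.98 (FDR 0.225) and CE+BZA below E2 by a difference of -2.18 ± 0.62 (SE, FDR 0.166). The E2 call against Veh was lost without Veh 1, Veh 7, E2 4 or E2 5 (1.37 to 1.47), and the other pair held with each mouse left out. Cyp2a22 differed from Veh by -0.39 in E2, -1.47 in CE (FDR 0.249), -1.26 in BZA and -2.31 ± 0.62 (SE) in CE+BZA (FDR 0.109). It was at 0.62, 0.70 and 1.36 in Veh and at -1.02, -2.04 and -1.20 in CE+BZA, and the CE call was lost without Veh 7 or CE 3 (-0.80 without CE 3). Cyp2g1, a P450 of the olfactory epithelium, was at -0.21, -0.44 and 0 in Veh and 1.88, 1.24 and 0.91 in E2 (1.56, FDR 0.234), and CE+BZA was below E2 by a difference of -1.70 (FDR 0.192).

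Among enzymes of steroid synthesis, Cyp17a1, the 17-hydroxylase and lyase on the way to androgens, was at -0.89, -1.27 and 0 in Veh, at 1.23, 0.87 and 2.08 in E2, at 0.15, 0.48 and 0.26 in CE, at -0.14, -1.29 and 1.15 in BZA and at -0.45, -0.26 and -0.57 in CE+BZA. E2 and CE lay above all Veh mice, while BZA and CE+BZA overlapped them. E2 exceeded Veh by 2.11 ± 0.58 (SE, FDR 0.143), and CE+BZA was below E2 by a difference of -1.82 (FDR 0.192). CE was 1.02 above Veh (FDR 0.315). Cyp21a1, the steroid 21-hydroxylase of the adrenal, was highest in CE 3 (2.03), CE+BZA 2 (1.92) and CE+BZA 3 (1.43), and differed between CE+BZA and E2 (1.79, FDR 0.302), a call lost without E2 3 (1.10), CE+BZA 2 or CE+BZA 3. It was the 1 of 6 listed markers of steroid-making tissue in the table. Akr1c18, a progesterone-inactivating reductase with 5 mice at the floor, was at 0.77, 0.45 and 2.44 in E2 and at -1.33, -1.33 and 0.64 in BZA, where -1.33 is the floor (E2 above BZA by 1.89, FDR 0.42, lost without E2 5, BZA 1 or BZA 3 and 1.28 without E2 5). Cyp1b1 ranged from -3.15 to 1.33 with no call.

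Sult1e1, the estrogen sulfotransferase that inactivates estradiol and estrone, was at -0.22, 0.65 and -1.41 in Veh, at -0.23, 0.34 and 0 in E2, at 0.43, 0.09 and 0.65 in CE, at -1.001, 1.41 and 1.15 in BZA and at -2.09, -0.96 and -2.56 in CE+BZA. The CE+BZA mice lay below all E2 and CE mice and overlapped Veh and BZA. CE+BZA differed by -2.26 ± 0.67 (SE) from CE (FDR 0.175), by -2.39 from BZA (FDR 0.514), by -1.91 from E2 (FDR 0.223) and by -1.54 from Veh (FDR 0.227). The first pair of calls held with each mouse left out, the E2 call was lost without CE+BZA 3 (-1.56), and the Veh call without Veh 1, Veh 4, CE+BZA 1 or CE+BZA 3 (-1.05 without Veh 4). Neither CE (0.71, FDR 0.536) nor BZA (0.85, FDR 0.425) was lower than Veh.

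Sulfation of hydroxysteroids such as DHEA, and of bile acids, is the work of the Sult2a enzymes, and 5 of their genes from 499.1 kb of chromosome 7 (chr7:13623967-14123044) were in the table. All 5 had a lower mean than Veh in all 4 treatments. Sult2a5 was at 1.15, 0.86 and 1.40 in Veh, at -0.10, -0.16 and 0.13 in E2, at -0.47, 0.16 and -0.05 in CE, at 0.97, 0 and 0.35 in BZA and at -0.87, -0.57 and -0.44 in CE+BZA. The CE+BZA mice were apart from all other groups except CE, whose lowest mouse (-0.47) lay among them, and BZA 1 overlapped Veh. The difference from Veh was -1.76 ± 0.44 (SE) in CE+BZA (FDR 0.105), -1.18 in E2 (FDR 0.261), -1.25 in CE (FDR 0.22) and -0.69 in BZA (FDR 0.337). Sult2a3 had the widest range, at 1.63, 1.59 and 2.15 in Veh and -2.13, -0.54 and -0.35 in CE+BZA (-2.80, FDR 0.109), with -2.31 in CE (FDR 0.202) and -1.67 in E2 (FDR 0.318, lost without any Veh mouse, E2 3 or E2 4). In CE+BZA, Sult2a1 differed from Veh by -1.55 (FDR 0.159), Sult2a2 by -1.24 (FDR 0.196) and Sult2a4 by -1.34 (FDR 0.167). All 5 met the looser rule in CE+BZA and kept it with each mouse left out, while Sult2a5 and Sult2a3 met it in E2 and CE, and 0 of the 5 in BZA. Against BZA, CE+BZA was lower by the looser rule for Sult2a5 (-1.07, FDR 0.54) and Sult2a1 (-1.03, FDR 0.556), calls lost without BZA 1 or CE+BZA 1 among others, and the intervals of the other 3 reached 0. So the lower mean in CE+BZA than in BZA held for all 5 genes, but was within the error for 3 of them.

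The promoters of Sult2a5, Sult2a4 and Sult2a3 are shown because these genes moved together (r from 0.866 to 0.956 over the 15 mice) and Sult2a2 and Sult2a1 have no entry. They are the 250 bases before the RefSeq start at chr7:13623717-13623966 on the plus strand, chr7:13989589-13989838 on the minus strand and chr7:14123049-14123298 on the minus strand, with capitals for the 6 aligned runs of 8 or more bases that are identical in all 3 genes.
Sult2a5 promoter: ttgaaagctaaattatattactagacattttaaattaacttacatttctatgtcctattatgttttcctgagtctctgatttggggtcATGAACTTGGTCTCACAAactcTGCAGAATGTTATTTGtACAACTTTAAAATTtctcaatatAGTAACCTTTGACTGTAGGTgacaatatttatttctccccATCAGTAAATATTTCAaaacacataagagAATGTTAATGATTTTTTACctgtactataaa
Sult2a4 promoter: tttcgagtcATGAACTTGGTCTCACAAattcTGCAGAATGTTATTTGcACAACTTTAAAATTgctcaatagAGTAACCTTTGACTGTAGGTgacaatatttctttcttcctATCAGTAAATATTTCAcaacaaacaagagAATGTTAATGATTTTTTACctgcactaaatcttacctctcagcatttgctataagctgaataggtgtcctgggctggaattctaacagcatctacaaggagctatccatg
Sult2a3 promoter: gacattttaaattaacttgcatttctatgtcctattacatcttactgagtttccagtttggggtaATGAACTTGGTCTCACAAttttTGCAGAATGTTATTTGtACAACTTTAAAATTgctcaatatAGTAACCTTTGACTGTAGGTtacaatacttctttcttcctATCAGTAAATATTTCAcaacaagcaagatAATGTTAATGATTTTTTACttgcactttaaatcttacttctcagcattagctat
The runs hold 103 of the 148 aligned positions that are identical in all 3, and the pairs are 88.1% to 92.7% identical over 169 to 227 aligned bases. Sult2a3 shares no 100-base transcript window with the other 4 genes, and its r with them was 0.836 to 0.899.

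Sult5a1, a male-predominant sulfotransferase of unsettled substrate, was the 1 member above Veh in all 12 treated mice. It was at -1.95, -1.68 and -2.26 in Veh, at 0.06, 0.48 and 0.89 in E2, at -0.15, -0.89 and 0.49 in CE, at -1.30, 0 and 0.02 in BZA and at 0.10, -0.37 and 1.34 in CE+BZA. The difference from Veh was 2.44 ± 0.57 (SE) in E2 (FDR 0.0863), 1.78 in CE (FDR 0.196), 1.53 in BZA (FDR 0.283) and 2.32 in CE+BZA (FDR 0.0973), and only the BZA call was lost with a mouse left out (1.31 without BZA 4). No pair of treatments met the rule for it. Sult4a1, a brain sulfotransferase with 3 mice at the floor, was at 2.82, -1.12 and 1.68 in E2 against -1.32, -0.14 and -1.32 in Veh (2.05, FDR 0.318, lost without any 1 of 5 mice and 1.20 without E2 3).

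**Figure D3:**
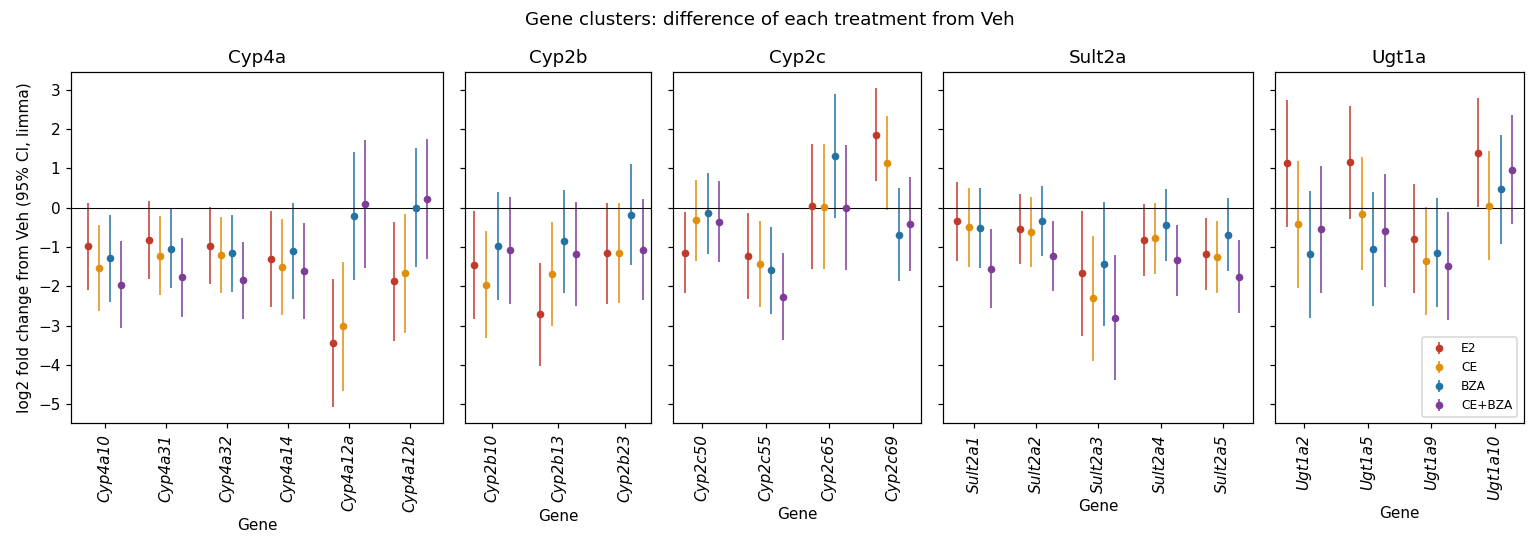
Log2 fold change from Veh, with the 95% CI from limma, of the genes of 5 subfamilies in E2, CE, BZA and CE+BZA. The Sult2a genes lie below 0 in every treatment and lowest in CE+BZA, Cyp4a12a and Cyp4a12b lie near 0 in BZA and CE+BZA and below it in E2 and CE, and Cyp2c69 stands above 0 in E2 and CE.

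Glucuronidation genes were split. The 4 Ugt1a genes share the exons of their 3′ part, so 57.5% to 63.1% of their windows occur in another gene and reads there cannot be assigned to 1 of them. Even so, only Ugt1a2 and Ugt1a5 moved together (r = 0.911), and the other 5 pairs had an r of 0.173 to 0.35. Ugt1a2 was at 0.74, -0.85 and -0.05 in Veh, at 0.88, 1.05 and 1.31 in E2, at -0.74, 0.51 and -1.18 in CE, at 0, -2.52 and -1.21 in BZA and at 0.33, 0.23 and -2.38 in CE+BZA. E2 was above all other mice, and above BZA by 2.32 (FDR 0.251) for Ugt1a2 and by 2.21 (FDR 0.215) for Ugt1a5. The lowest Ugt1a5 value was in BZA 3 (-2.57), the library with adipocyte and pancreas markers, and without it the E2 to BZA differences were 1.68, which lost the call, and 1.38. Ugt1a9, which conjugates phenols, was lower in CE+BZA (-1.49, FDR 0.229, -1.05 without CE+BZA 2, where the call was lost), and Ugt1a10 higher in E2 (1.40, FDR 0.322, lost without any 1 of 10 mice, 0.94 without Veh 4). Ugt2b37, of the steroid-conjugating 2b family, was at 0.43, 0.98 and 1.27 in Veh, at 0.61, 1.40 and 2.99 in E2, at -0.27, 0 and -0.24 in CE, at 0.10, -0.49 and -0.58 in BZA and at -0.18, -0.88 and -0.53 in CE+BZA. E2 lay above CE, BZA and CE+BZA with no overlap, by 1.84 (FDR 0.442), 1.99 (FDR 0.159) and, as CE+BZA minus E2, -2.20 (FDR 0.123). Against Veh it was lower in BZA (-1.22, FDR 0.297) and CE+BZA (-1.42, FDR 0.211), calls lost without Veh 7 (-1.03 and -1.24) and without some other mice. The E2 to CE difference was 1.17 without E2 5, where the call held. Ugt8a, which makes myelin galactolipids, ranged from -1.55 to 1.66 with 2 mice at the floor and no call.

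Sterols are the substrate of 2 members, Cyp7a1, the rate-limiting enzyme of bile acid synthesis, and Cyp46a1, the cholesterol 24-hydroxylase, out of 15 listed. Neither met the rule, and their medians in E2, CE, BZA and CE+BZA were -0.79, -0.99, -0.48 and -0.33. Cyp7a1 was at 0.81, -0.71 and 0.90 in Veh, a spread that held all 12 treated mice except CE 3 (-0.77), CE 6 (-0.84) and BZA 3 (1.07).

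Retinoid enzymes gave 3 of 10 listed genes. Aldh1a1, which oxidizes retinaldehyde, was at 1.02, 0.55 and 1.18 in Veh, at -0.40, -0.82 and -0.97 in E2, at -0.61, -0.70 and -0.32 in CE, at -0.30, 0.54 and 0.34 in BZA and at 0.10, 0.10 and 0 in CE+BZA. The difference from Veh was -1.65 ± 0.43 (SE) in E2 (FDR 0.131) and -1.47 in CE (FDR 0.175), held with each mouse left out, and -0.73 and -0.85 in BZA and CE+BZA (FDR 0.322 and 0.244). Its pattern was most like that of Cyp2b13 (r = 0.85 over the 15 mice). Aldh1a3, of the same activity, was at 1.16, 1.08 and 1.02 in CE and -0.62, 0 and -0.54 in BZA (1.47, FDR 0.394), and its difference from Veh in CE (1.17, FDR 0.264) was lost without any 1 of 9 mice. Cyp26b1, which degrades retinoic acid, differed from Veh by -1.68 in CE (FDR 0.266) without meeting the rule.

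The remaining members had few calls. Ces1e, a carboxylesterase, was at 0.87, 0.73 and 0.87 in Veh, at -0.20, -0.01 and -0.12 in E2, at -0.94, 0.22 and -0.10 in CE, at 0.16, 0.24 and -0.26 in BZA and at 0.11, 0 and -0.07 in CE+BZA. All treated mice were below Veh, although only the CE difference met the rule (-1.10, FDR 0.246, lost without Veh 1 or CE 3). Ces1a and Ces2b, with 5 and 4 mice at the floor, had none. Akr1b7, a reductase of aldehydes, was at 0.75, 0.65 and 1.18 in E2 and at 0.25, -1.44 and -0.18 in BZA (1.31, FDR 0.444, lost without any 1 of 11 mice) and below E2 in CE+BZA (-1.73, FDR 0.24, -1.37 without CE+BZA 2, where the call was lost). Its pattern ran most opposite to that of Cyp4a12a (r = -0.85). Abca2, a lipid transporter, was higher in CE+BZA (1.33, FDR 0.216, lost without Veh 7, CE+BZA 2 or CE+BZA 3, and 1.003 without Veh 7), and Abcc4, an exporter of sulfated steroids and bile acids, differed from Veh by -1.37 in CE+BZA (FDR 0.24) and -1.30 in CE. Aldh1l2, a mitochondrial folate enzyme, had none.

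By role, 11 of 24 listed genes of steroid hormone synthesis and inactivation were members, and 1 was higher and 2 lower than Veh at the looser rule in E2, 2 lower in CE, 0 in BZA and 6 lower in CE+BZA, with medians of -0.35, -0.22, -0.34 and -1.24. The lower calls in E2 and CE were Sult2a3 and Sult2a5. The 6 in CE+BZA were Sult1e1 and the 5 Sult2a genes of 1 cluster, which moved together, and no P450 of the list met the rule there. Of 11 fatty acid hydroxylases and epoxygenases, 2 were higher and 5 lower in E2, and 7, 4 and 5 were lower in CE, BZA and CE+BZA, with medians of -0.99, -1.22, -0.69 and -0.42. The retinoid list had 1 lower in E2, 1 higher and 1 lower in CE, and 0 in BZA and CE+BZA (medians -0.19, -1.47, -0.73 and -0.22). Over all 2545 genes, 6.52%, 10.1%, 8.92% and 11.6% were higher and 8.61%, 8.45%, 7.47% and 9.55% lower in E2, CE, BZA and CE+BZA, with medians of 0, 0.06, 0.11 and 0.08.

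Genes known as female-predominant differed in direction in E2 and had 0 higher calls in the other treatments. Of 20 listed, 15 were members, with 3 higher (Cyp2a4, Cyp2c69 and Cyp17a1) and 5 lower in E2, 7 lower in CE, 1 lower in BZA and 7 lower in CE+BZA, and medians of -0.55, -1.25, -0.69 and -1.24. The difference from Veh was negative for 10, 10, 13 and 14 of the 15 in E2, CE, BZA and CE+BZA. Of all genes, 6.52%, 10.1%, 8.92% and 11.6% were higher and 8.61%, 8.45%, 7.47% and 9.55% lower at the looser rule. The medians of all genes were 0, 0.06, 0.11 and 0.08. Between CE+BZA and E2 the count was 1 higher (7.7% of all genes) and 7 lower (5.46%). Of 10 male-predominant genes listed, 3 were members, and they differed in direction too, since Cyp4a12a and Cyp4a12b were lower in E2 and CE and Sult5a1 was higher in all 4 treatments (medians -1.88, -1.67, -0.0036 and 0.22).

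Pairs of treatments were compared directly, in 6 contrasts that Veh does not enter. No member passed at an FDR under 0.05 in any of them (0 of 49 each, against 0.0393% of all genes for E2 and CE, 0.275% for E2 and BZA, 0% for CE and BZA, 0.157% for CE+BZA and E2, 0.0393% for CE+BZA and CE and 0% for CE+BZA and BZA). At the looser rule, 1 member differed between E2 and CE (9.08% of all genes did), 12 between E2 and BZA (11.1%), 4 between CE and BZA (11.2%), 15 between CE+BZA and E2 (13.2%), 6 between CE+BZA and CE (14.4%) and 3 between CE+BZA and BZA (8.76%). Of the 12, 9 were higher in E2 (4.68% of all genes) and 3 lower (6.4%), and of the 15, 11 were lower in CE+BZA (5.46%) and 4 higher (7.7%). In at least 1 of the pairs 18 members met the rule, or 36.7%, against 37.1% of all genes. The E2 to CE count was 2 to 4 without any 1 of 9 mice and 4 without E2 3, E2 4 or CE 3, the CE+BZA to CE count 10 without CE 3 and 2 without CE+BZA 2, and the CE+BZA to BZA count 8 without BZA 3 and 5 without CE+BZA 3. Without BZA 3, BZA 1 and CE 3, the 6 counts were 5, 11, 5, 16, 10 and 6. That CE had few members apart from E2 does not show that they acted alike, since the 95% CI of the E2 to CE difference ran from -0.47 to 1.91 for Cyp2c69, from -0.13 to 2.33 for Cyp17a1 and from -0.53 to 1.85 for Sult5a1.

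**Figure D4:**
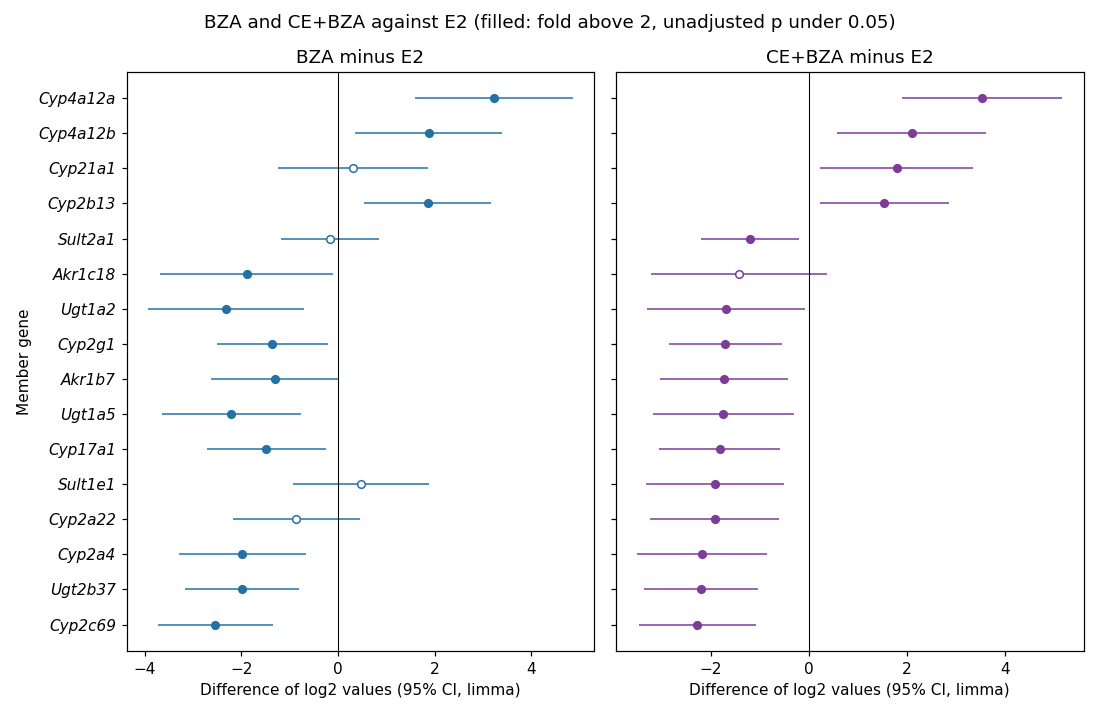
Differences of log2 values from E2, with 95% CI from limma, for the 16 members that met the looser rule in BZA against E2 (left) or CE+BZA against E2 (right), where filled points met it. Cyp4a12a, Cyp4a12b and Cyp2b13 lie above 0 in both panels, and Cyp2c69, Ugt2b37 and Cyp2a4 lie below it.

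Whether CE and BZA together gave the sum of their separate differences was tested with the difference of CE+BZA from BZA less that of CE from Veh, which was chosen after the values were seen. No member passed at an FDR under 0.05 (0 of 49, against 0.118% of all genes), and 4 had an unadjusted p under 0.05 and a size above 1 (12.3% of all genes). They were Sult1e1 (-3.10, 95% CI -5.09 to -1.11, FDR 0.256), Cyp4a12a (3.33, 95% CI 1.02 to 5.63, FDR 0.257), Cyp26b1 (2.55, FDR 0.388) and Aldh1a1 (1.34, FDR 0.392).

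The other genes of the pathway were counted from fixed lists. For these counts and those of the next paragraph, the shares of all genes at the looser rule in E2, CE, BZA and CE+BZA serve as the comparison. They were 6.52%, 10.1%, 8.92% and 11.6% higher and 8.61%, 8.45%, 7.47% and 9.55% lower. Of 27 regulators, 4 were in the table, and 1 was higher and 1 lower than Veh at the looser rule in E2, 1 higher in CE, 0 in BZA and 1 higher and 1 lower in CE+BZA, with medians of 0.71, 1.10, 0.62 and 0.90. Cux2, a female-predominant repressor of male liver genes, was higher by 2.08 in E2 (FDR 0.317) and 2.53 in CE (FDR 0.22), and by 0.57 and 0.46 in BZA and CE+BZA (FDR 0.707 and 0.799). Pparg differed by -1.30 in E2 (FDR 0.228) and -1.03 in CE+BZA (FDR 0.224). Of 9 partners and cofactors, Alas1, which starts heme synthesis, was the 1 in the table and was higher in CE+BZA (1.39, FDR 0.225).

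Among the members and these lists, only Cyp3a and the other conjugation genes held calls against Veh at the FDR threshold. Over all genes, 0.196%, 0.157%, 0% and 0.118% were called there in E2, CE, BZA and CE+BZA. Of 5 Cyp3a genes, 2 were higher and 2 lower in E2, 2 higher and 1 lower in CE, and 2 lower in BZA and in CE+BZA, with medians of -0.91, -0.65, -0.64 and -0.92. Cyp3a44, female-predominant, rose in E2 (4.90 ± 0.65 SE, FDR 0.00231), with 2.60 in CE (FDR 0.145), 0.68 in BZA and 0.51 in CE+BZA, and Cyp3a41a was higher by 2.15 in E2 (FDR 0.143). Of 9 other conjugation genes, 1 was higher and 2 lower in E2 and in CE, 1 higher and 1 lower in BZA and 2 higher and 2 lower in CE+BZA (medians 0.42, 0.68, 0.86 and 1.02). Gsta1, a glutathione transferase, fell in E2 (-3.08 ± 0.49 SE, FDR 0.00754) and CE (-2.56, FDR 0.0462), with -1.47 in BZA (FDR 0.236) and -1.93 in CE+BZA (FDR 0.108), and Gsta2 differed by -1.71 in E2 (FDR 0.221) and -1.90 in CE (FDR 0.175). Aox3l1, an aldehyde oxidase, differed by 1.03 in E2 (FDR 0.332). Of 6 uptake carriers, 2 were higher and 1 lower in E2, 1 higher in CE and BZA, and 1 higher and 1 lower in CE+BZA (medians 0.36, 0.82, 0.69 and 0.44). Slc22a7, an organic anion carrier, was higher by 1.41, 1.85, 1.56 and 1.66 in E2, CE, BZA and CE+BZA (FDR 0.322, 0.22, 0.283 and 0.213), and Slc22a29 differed by -1.29 in E2 (FDR 0.252) and -1.49 in CE+BZA (FDR 0.167).

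Members of a subfamily were more alike than members at large, in part where their sequences share windows. The median r over the 15 mice was 0.35 for the 43 pairs within a subfamily and 0.081 for all 1176 pairs. It was 0.884 for the 15 pairs that share 100-base transcript windows and 0.205 for the 28 that share none. Cyp4a14 shares none with Cyp4a10, Cyp4a31 and Cyp4a32 and still had an r of 0.854 to 0.88 with them, and these 3, which share 5.0% to 11.8%, had an r of 0.973 to 0.977. The points share the 15 libraries, and the mice differ by group, so r is a description.

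**Figure D5:**
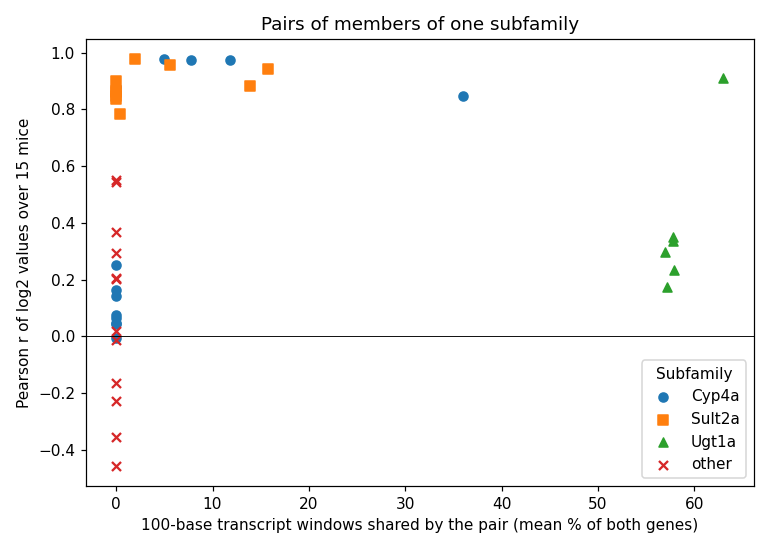
Pearson r of the log2 values over the 15 mice (vertical) against the share of 100-base transcript windows that the 2 genes have in common (horizontal, mean of both directions), for the 43 pairs within a subfamily. Sult2a pairs and 6 Cyp4a pairs without Cyp4a12 copies lie above 0.7 at shares from 0 to 15.8%, while 5 of 6 Ugt1a pairs lie below 0.4 at shares near 57%.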

How the data were processed

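RNA-seq was done on liver of 15 mice, 3 in each of 5 groups, with groups and replicate numbers taken from the sample descriptions. Per the paper and the submitters' processing notes, the authors trimmed reads (FASTQ Trimmer), mapped them with TopHat (TopHat2 0.5 in the notes, builds mm10 and hg19 listed without a role), counted genes in StrandNGS with partial reads and applied DESeq normalization. Whether strand was used in counting is not given in the sources used here. The authors deposited log2 values relative to the median of each gene, which is 0 in all 2545 genes, with low values raised to a floor. All 2545 differ more than 2-fold from Veh in at least 1 treatment. Read depth per mouse is unknown from these values. Low values moved in steps of 1 read worth about 0.838 to 1.139 normalized counts, and 52.4% to 75.0% of low values lay within 0.02 reads of whole reads, too few to recover reads. The number of columns left unused is 0, and no 2 mice had identical values.

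The 5 groups were fitted to all 15 mice with limma 3.58.1 (lmFit, contrasts.fit, eBayes) in R 4.3.3, two-sided, with no pseudocount and no filter, and FDR values are Benjamini-Hochberg adjusted over the 2545 genes of a contrast. Values after ± are standard errors of a difference from this fit. Each p-value sets a difference against the spread between mice, pooled over the 5 groups and shrunk by eBayes. The script was tested on simulated data. Positions came from GENCODE M21 (GRCm38, which is mm10), all 49 members matched, and promoters from RefSeq (GRCm38.p6), 34 matched. Promoters were aligned with MAFFT 7.526. A window was counted as shared when its 100 bases occur in a transcript of another gene. Python 3.11.15, numpy 2.4.6, pandas 2.3.3 and matplotlib 3.10.9 served for the rest.

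The members and all gene lists were chosen with earlier results of these data known. Named genes were members with an F-test call, those with the smallest p per contrast and direction, family extremes, members of a role list or with a paralog, and 2 genes per other list, except that the counts and 1 gene of the list of other oxidation and reduction genes are not reported here. Ugt8a, Cyp2s1, Cyp2g1 and Aldh1l2 fall outside this rule and are named so that every member is accounted for. Alternatives tried were quantile normalization, centering of each mouse, a fit without low or floored genes, without shrinkage of the variance, with a trend of variance on mean, with a replicate block, on only those groups that a contrast compares, without a fold threshold, without each mouse, and, chosen after seeing the data, leaving out CE 3, BZA 1 and BZA 3.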

Additional observations from a re-analysis of the deposited data

How the results depend on the processing

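No member difference that met the looser rule in the main fit changed sign under any alternative that was run. The signs of differences that did not meet it were not followed, and 3 mice a group limit what can pass. Of the gene differences at the looser rule, 714 values stayed on their side of it and 122 fell short. These totals do not include the fits that leave out 1 mouse, in which 6 (without BZA 1) to 22 (without Veh 7) differences fell short. The F-test FDR of Cyp4a12a was 0.0532 with quantile normalization, 0.133 without variance shrinkage, 0.535 with the replicate block and 0.113 without CE 3, BZA 1 and BZA 3, so the count of members in that test was 0 in each of these and also 0 with floored genes left out, where Cyp4a12a itself is dropped. At an FDR under 0.05 with a fold above 2, members against Veh numbered 2 in E2 and 1 in CE+BZA with floored genes left out, 1 in E2, 1 in CE and 4 in CE+BZA without variance shrinkage, and 1 in E2 and 2 in CE+BZA without the 3 libraries. Over the pairs of treatments there was 1 such call with quantile normalization, with the genes of lowest mean left out, with floored genes left out and with the mean-variance trend.

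At the looser rule, the E2 to CE count of 1 was 6 with quantile normalization, 2 with centering, with floored genes left out and with the trend, and 5 with only the groups compared and without the 3 libraries. The CE+BZA to BZA count of 3 was 6 with quantile normalization and without the 3 libraries. The CE+BZA to CE count of 6 was 3 with the genes of lowest mean left out and 10 without the 3 libraries. The BZA count against Veh was 12 without them. The median of the members in CE was -0.90 with the genes of lowest mean left out and -0.49 without the 3 libraries. Quantile normalization moved the share of higher calls between CE and BZA to 75% from 50% and between CE+BZA and BZA to 33.3% from 0%. The median of all genes was 0.1057 in BZA as deposited and 0.1002 with centering.

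With each mouse left out, the looser counts ranged from 3 to 16 in BZA against Veh, from 1 to 4 between E2 and CE, from 2 to 10 between CE+BZA and CE and from 2 to 8 between CE+BZA and BZA. At the FDR threshold there were 0 to 1 in E2 (1 without E2 3), 0 to 1 in CE+BZA (1 without BZA 3), 0 to 2 over the pairs (2 without Veh 1) and 0 to 1 in the F-test, and the CE median from -0.74 to -0.49. The cause of these shifts was not tested.

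Replicate numbers recur between groups. The 13 pairs of mice with the same number had correlations of deviations from -0.049 to 0.098, and 0 of them were over 0.1. Of the 77 pairs with different numbers, 4 were over 0.1. With so few pairs, and deviations taken from the mean of each small group, this check cannot show whether the numbers pair the mice. With the replicate block the looser counts against Veh were 9 (7 higher and 2 lower), 6 (1 and 5), 1 (1 and 0) and 6 (1 and 5) in E2, CE, BZA and CE+BZA, against 8 higher and 10 lower in E2 and 1 and 5 in BZA without it, and 6 for E2 and BZA, 1 for CE and BZA, 5 for CE+BZA and E2, 1 for CE+BZA and CE and 1 for CE+BZA and BZA.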
